A study of Rattus norvegicus with 4 samples.

Results

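Autophagy is the route by which a cell wraps part of its own cytoplasm, a damaged organelle or a taken-up particle in a double membrane and delivers it to the lysosome. A kinase complex around ULK1 and a lipid kinase complex around PIK3C3 and beclin start the membrane, 2 ubiquitin-like conjugation systems attach proteins of the ATG8 family (LC3 and GABARAP) to its lipid, and cargo receptors such as p62 bind both the cargo and the ATG8 proteins. In macrophages this machinery also takes part in the handling of engulfed material. The genes described here are a list of 35 rat genes of this machinery, of which 33 could be tied to a probe through the accession printed in the scanner files, out of 16581 genes named in the same way. They were listed by their role in the pathway, with no signal value in the rule: 15 act in initiation (14 with a probe), 15 in conjugation (14 with a probe) and 5 are cargo receptors (5 with a probe). Pik3r4, the regulatory subunit of the lipid kinase complex, and Atg4b, a protease that trims ATG8 proteins, had no probe matched by accession and are not described further.

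The cells were NR8383, an established line of rat alveolar macrophages that grows partly attached and partly floating. All samples described here were exposed for 4 h to TiO2 of the NM105 type (p25, a mixture of anatase and rutile) at 3 cm2 of particle surface per cm2 of culture, after 20 passages and 48 h after seeding. They are 4 cultures, replicates 1 to 4, which the study calls biological replicates, each read on 1 single-colour Agilent array. The labels give 15% serum for all 4. The study's unexposed cultures are not analysed here, so no value below is a response to the particles. Of 8 macrophage markers, 8 gave signal well above background on all 4 arrays, with the lysosomal glycoprotein gene Cd68 at 2.40, 2.40, 2.19 and 2.13 and the myeloid transcription factor gene Spi1 at −0.38, −0.20, −0.22 and −0.30 on replicates 1 to 4. Of 15 markers of epithelium, fibroblasts, endothelium, T cells and B cells, 0 did so on all 4 arrays and 1, Col1a1, did so on 1 array.

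A level below is the log2 of a probe's signal minus the log2 of a reference signal of its own array, the 75th percentile over the probes detected on all arrays. It allows the same gene to be followed across arrays, whereas levels of different genes depend on each probe's brightness and are not set against each other. Where a gene's SD is also given without 1 array, that array is the one whose removal lowered it most. Leaving out another array raised the SD in some genes, as given for Ulk1, Pik3c3, Atg3 and Gabarapl1. A gene is called detected on an array where Agilent's software marked at least 1 of its probes as well above background. The replicate 1 array was the brightest, with a reference signal of 1431 intensity units, against 585, 767 and 831 on replicates 2 to 4. It also had the largest share of named genes detected, 45.5%, against 36.1%, 39.4% and 39.3%.

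Most of the measured autophagy genes were detected in the exposed macrophages. Of the 33 genes, 22 were well above background on each of the 4 arrays (66.7%), a further 4 on 1 to 3 arrays, and 7 nowhere. Over all 16581 named genes the share detected on all 4 arrays was 35.2%, and the share detected on none was 53.7%. By role, the genes detected on all 4 arrays were 9 of 14 initiation genes, 9 of 14 conjugation genes and 4 of 5 cargo receptors. On single arrays the number of detected members was 25, 23, 26 and 23 for replicates 1 to 4. By each gene's brightest probe, the 22 lay between 4.11 and 2641 times the 99th percentile of their array's negative control spots. The median was 51.0 times, and only Atg14 lay under 10 times on any array. No member spot was saturated. These are levels of RNA in a culture, where more cells with the transcript and more transcript per cell cannot be told apart.

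**Figure D1:**
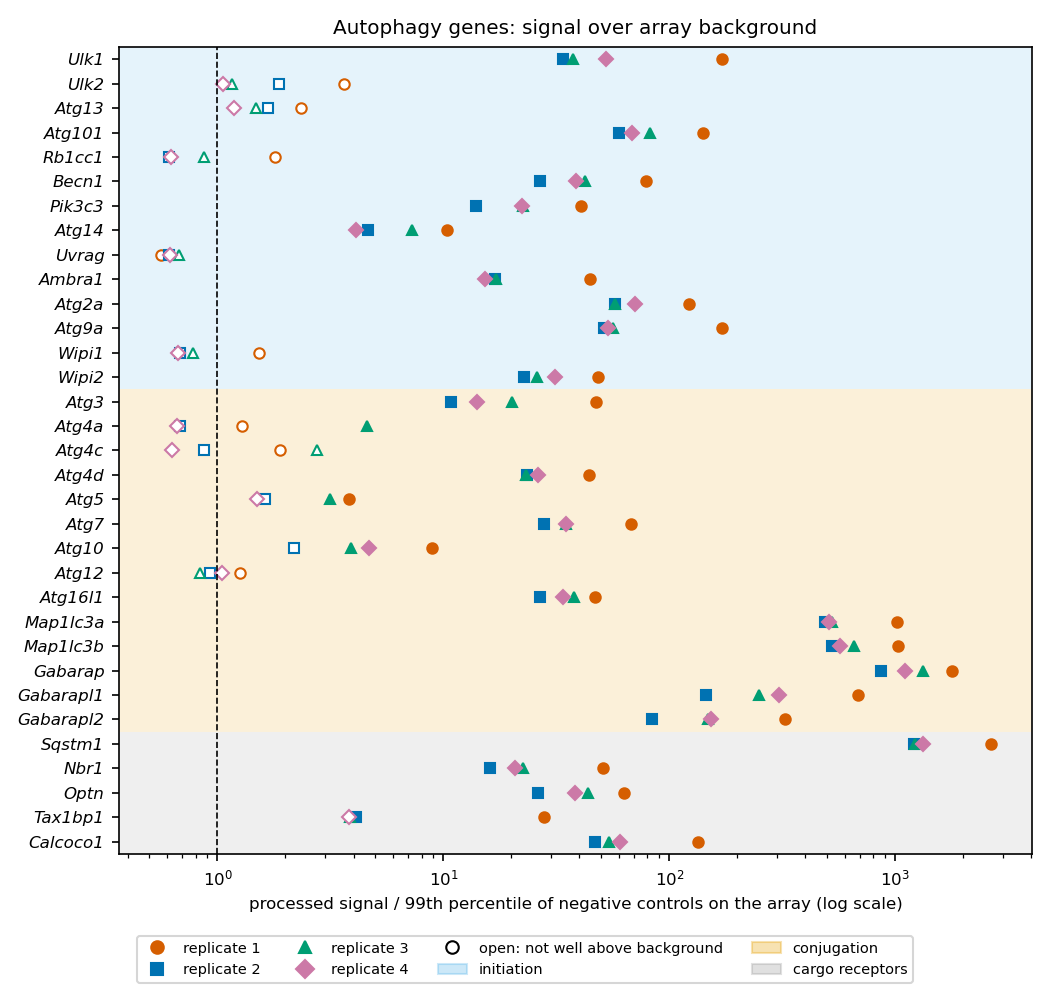
Signal of the 33 autophagy genes on each of 4 arrays, as processed signal divided by the 99th percentile of that array's negative control spots (log axis, dashed line at 1), with 1 row per gene in the order of roles. Filled symbols were well above background and open ones were not: the ATG8 family and Sqstm1 lie far to the right on all arrays, while Uvrag, Rb1cc1, Wipi1 and Atg12 lie around the dashed line.

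The complex that starts autophagy was detected in part. Its 5 measured genes included 2 that passed on every array. That share, 40.0%, was near the 35.2% of all named genes, so it does not set this complex apart from them. Ulk1, the kinase that nutrient shortage releases from inhibition, was at −0.58, −1.66, −2.02 and −1.41 on replicates 1 to 4. Replicate 1 was the highest and replicate 3 the lowest, 2.71-fold apart, and this was the largest spread among the 22 detected members (SD 0.61, n = 4). Without replicate 1 the SD of Ulk1 was 0.31, below those of Atg14 at 0.37 and Gabarapl1 at 0.35. Without replicate 4 the SD of Ulk1 was 0.75. Atg101, a subunit that stabilises ATG13 in the same complex, was at −0.85, −0.83, −0.88 and −1.03 (SD 0.09, and 0.02 without replicate 4). The other 3 subunits on the array were not well above background anywhere. For Atg13, the adaptor between the kinase and its partners, the only probe lay between 1.18 and 2.35 times the 99th percentile of the negative controls. Rb1cc1, which encodes the scaffold FIP200, had 2 probes and Ulk2, the paralog of Ulk1, had 2 as well, and none of these was detected. The brighter Ulk2 probe exceeded the 99th percentile of negative control spots on each of the 4 arrays, reaching 3.64 times that value on replicate 1, and the brighter Rb1cc1 probe did so on 1 array.

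The lipid kinase complex was detected in most of its measured parts. Becn1, the gene of beclin, which holds the complex together, was at −1.69, −2.00, −1.84 and −1.85 on replicates 1 to 4 (SD 0.13), so the 4 cultures lay within 0.31 of each other on the log2 scale. Pik3c3, the catalytic subunit that makes the lipid PI3P, was at −2.64, −2.94, −2.75 and −2.65 (SD 0.14). Its SD was 0.07 without replicate 2 and 0.18 without replicate 3. Ambra1, which links beclin to the ULK1 kinase, was higher on replicates 1 and 2, at −2.52 and −2.66, than on replicates 3 and 4, at −3.15 and −3.19 (SD 0.34). Atg14, the subunit that directs the complex to autophagosomes, was the dimmest of the 22 genes against background and was at −4.62, −4.53, −4.38 and −5.08 (SD 0.30). Replicate 4 was its lowest array, and without that array the SD was 0.12. Uvrag, the subunit that takes the place of ATG14 in endosomal traffic, stayed at 0.561 to 0.674 times the 99th percentile of the negative controls and was detected on no array.

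Among genes that supply membrane or read PI3P, 3 of 4 were detected on all arrays. The scramblase gene Atg9a, whose protein travels in small vesicles, was at −0.57, −1.06, −1.43 and −1.39 on replicates 1 to 4 (SD 0.39, and 0.20 without replicate 1). Like Ulk1 it was highest on replicate 1, and its second probe gave −0.68, −1.29, −1.47 and −1.53. Atg2a, which encodes a lipid transfer protein, was at −1.06, −0.89, −1.40 and −0.98 (SD 0.22), with replicate 3 the lowest, and without replicate 3 its SD was 0.08. The PI3P-binding gene Wipi2 was at −2.39, −2.23, −2.55 and −2.16 (SD 0.17). Its relative Wipi1 was not detected on any array and exceeded the same percentile on replicate 1 only, at 1.53 times.

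Of 9 measured genes of conjugation enzymes and their substrates, 4 passed on every array, 3 passed on 1 to 3 arrays and 2 never did. The share on every array was 44.4%, near the 35.2% of all named genes. Atg7, the E1-like enzyme that activates ATG12 and ATG8 proteins, was at −1.92, −1.93, −2.12 and −1.99 on replicates 1 to 4 (SD 0.09, and 0.04 without replicate 3). A second Atg7 probe, designed on a predicted transcript, was detected on no array. Atg3, the E2-like enzyme that passes ATG8 proteins to lipid, was at −2.42, −3.31, −2.91 and −3.31 (SD 0.42), highest again on replicate 1. Its SD was 0.23 without that array, 0.52 without replicate 3 and 0.22 after normexp background correction. Atg16l1, which brings the ATG12-ATG5 conjugate to the membrane, was the reverse case, lowest on replicate 1 at −2.45 and within 0.05 of each other on replicates 2 to 4, at −2.00, −2.01 and −2.05 (SD 0.21, and 0.03 without replicate 1). The protease gene Atg4d was at −2.52, −2.18, −2.70 and −2.41 (SD 0.22).

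The remaining conjugation genes were close to the limit of detection. Atg5, the acceptor of ATG12, was detected on replicates 1 and 3 and lay between 1.49 and 3.84 times the 99th percentile of the negative controls over the 4 arrays. Atg10, the E2-like enzyme that makes the ATG12-ATG5 bond, was detected on replicates 1, 3 and 4 by 1 of its 2 probes, at levels of −4.84, −5.61, −5.28 and −4.89. Atg4a was detected on replicate 3 only, at −5.05, against −7.63, −7.29 and −7.71 on replicates 1, 2 and 4. Its only probe has 1 spot an array, so the high value on replicate 3 has no second reading. Atg12 itself and Atg4c were detected on no array. The single Atg12 probe stayed between 0.834 and 1.26 times the 99th percentile of the negative controls. A gene not detected here may still be transcribed, since a probe can bind poorly.

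All 5 genes of the ATG8 family were detected on all 4 arrays, far from background. Map1lc3a was at 2.01, 2.20, 1.80 and 1.87 on replicates 1 to 4 (SD 0.17, and 0.11 without replicate 2) and Map1lc3b, whose protein in its lipid-bound form is the usual marker of autophagosomes, at 2.01, 2.29, 2.12 and 2.03 (SD 0.13, and 0.05 without replicate 2). Gabarap, of the subfamily that acts late in autophagosome closure, was at 2.81, 3.02, 3.13 and 2.99 (SD 0.13, and 0.07 without replicate 1). For these 3 genes the lowest and highest arrays differed by at most 0.40 on the log2 scale. Gabarapl1 was at 1.43, 0.45, 0.73 and 1.13 (SD 0.43), a spread close to that of Atg3. Its SD was 0.35 without replicate 1 and 0.51 without replicate 4. Gabarapl2 was at 0.35, −0.35, −0.03 and 0.13 by its brighter probe (SD 0.29), with replicates 1 and 2 at the 2 ends as for Gabarapl1. Its second probe, at −0.65, −0.54, −0.57 and −0.60, showed no such difference (SD 0.05).

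The Gabarapl1 probe was printed at 10 spots an array, which gives a measure of error within an array. Its spots ran from 1.29 to 1.72 on replicate 1 and from 0.26 to 0.63 on replicate 2, so these ranges did not meet. Replicate 4 lay between them at 1.06 to 1.21, and replicates 2 and 3 overlapped at their edges, with replicate 3 at 0.59 to 0.85. The SD between the spots was 0.12, 0.10, 0.08 and 0.05 on replicates 1 to 4, against 0.43 between the 4 array means. For Map1lc3b the probe with 10 spots showed no such separation, since the array means were 1.11, 1.18, 1.37 and 1.28 (SD 0.11), and the spots of replicate 1 alone ran from 0.50 to 1.45. Spots share the RNA of 1 culture, so this separates arrays and not cultures. Differences of culture, extraction, labelling and hybridisation cannot be told apart in these numbers.

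**Figure D2:**
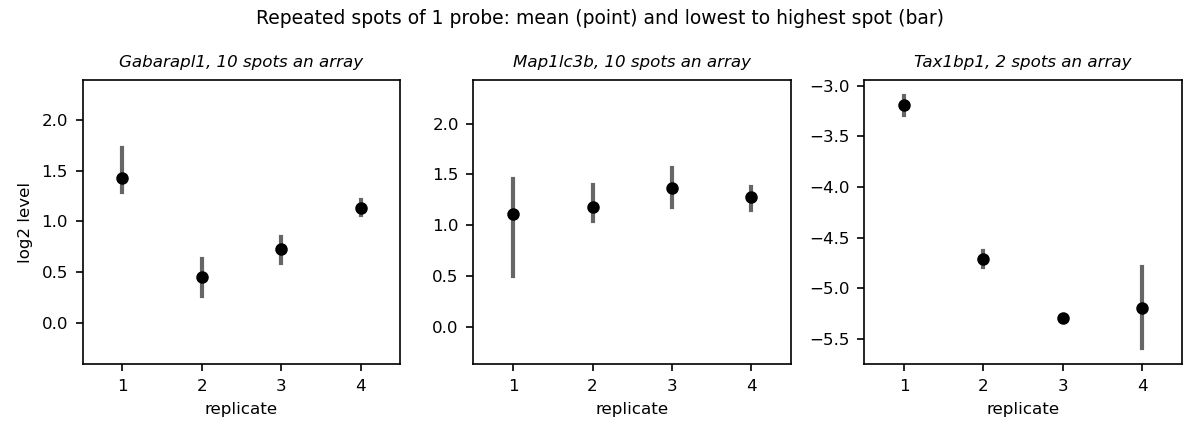
Log2 level of the 3 member probes printed more than once, by replicate, with points for the array mean and bars from the lowest to the highest spot; the 3 vertical axes have the same span. The Gabarapl1 bars of replicates 1, 2 and 4 do not meet, the Map1lc3b bars all overlap, and Tax1bp1 stands high on replicate 1.

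Cargo receptors were detected almost completely. Sqstm1, the gene of p62, which gathers ubiquitin-tagged cargo, lay farthest above background of all members by each gene's brightest probe. By that probe it was at 3.38, 3.50, 3.02 and 3.26 on replicates 1 to 4 (SD 0.21). Without replicate 3, its lowest array, the SD was 0.12. The 3 Sqstm1 probes, all detected on all arrays, had mean levels of 3.29, 0.45 and −0.04, so this rank rests on 1 probe. Nbr1, a partner of p62 with the same kinds of binding domain, was at −2.32 on replicate 1 and at −2.73, −2.74 and −2.75 on replicates 2 to 4 (SD 0.21, and 0.01 without replicate 1). Optn, which encodes the receptor optineurin for mitochondria and bacteria, was at −2.01, −2.02, −1.79 and −1.86 (SD 0.11). Calcoco1, a receptor for endoplasmic reticulum and Golgi, was at −0.92, −1.19, −1.48 and −1.20 (SD 0.23). Both had further probes that were detected on some arrays only: 2 of 3 for Optn and 1 of 2 for Calcoco1.

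Tax1bp1, a receptor that takes ubiquitin-tagged aggregates to autophagosomes, was the only receptor not detected on all 4 arrays. Its levels were −3.20, −4.71, −5.29 and −5.19 on replicates 1 to 4, with replicate 1 far above the others. Both of its spots were well above background on replicates 1 to 3 and 1 of 2 was on replicate 4, where the rule asks for more than 50% of spots. Counting any spot would bring the members detected on all arrays to 23. On replicate 1 the 2 spots gave −3.29 and −3.10, so they agreed closely where the level was highest. On replicate 4 they lay 0.80 apart, at −5.59 and −4.79.

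**Figure D3:**
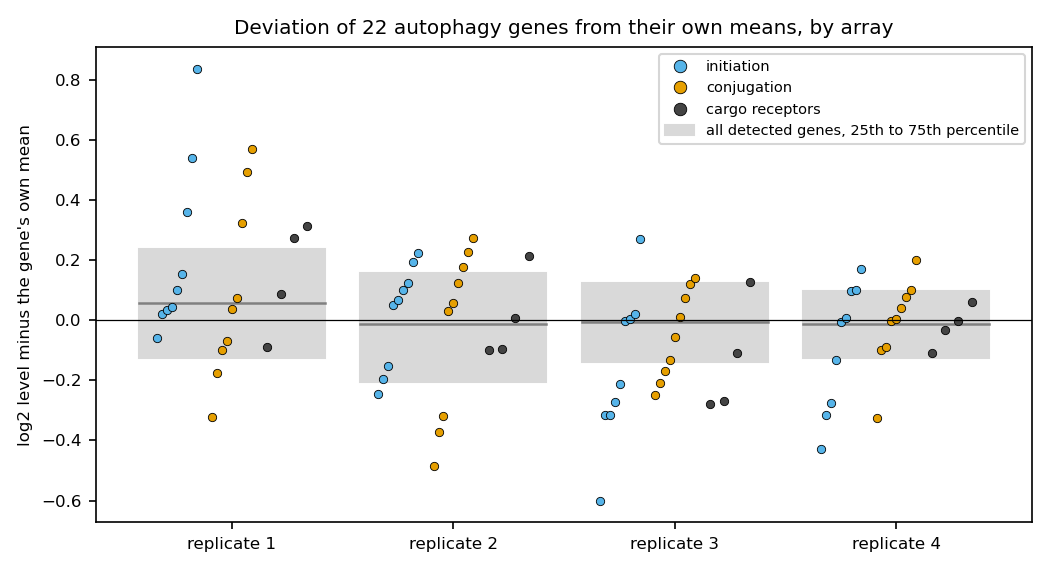
Deviation of each of the 22 detected autophagy genes from its own mean over the 4 arrays (log2, vertical axis), by array and role, with grey boxes for the 25th to 75th percentile of all 5824 detected named genes and grey lines for their median. Ulk1 at 0.84, Atg3 and Atg9a stand highest on replicate 1, and most genes on replicate 3 lie at or below 0.

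The 22 genes were then followed across arrays as a group, to describe how far the 4 cultures differed in this machinery. Their median SD was 0.21 on the log2 scale, against 0.23 for all 5824 named genes with a level on all arrays. Which of these 2 medians was larger changed with the array left out: without replicate 1 they were 0.20 and 0.19. Replicate 1 was the highest array for 11 of the 22 genes (50.0%), against 37.8% of all genes, and replicate 3 was the lowest for 9 (40.9%), against 22.2% of all genes. Averaged over the members, the deviation from each gene's own mean was 0.16, −0.004, −0.11 and −0.04 for replicates 1 to 4. Over all genes these means were 0.05, −0.03, −0.01 and −0.01. The median over members on replicate 1 was 0.08, against 0.06 for all genes, and the 4 members farthest above their own means there were Ulk1, Atg3, Atg9a and Gabarapl1. On replicate 3 the median was −0.12, against −0.01 for all genes. Without replicate 1 the members' mean on replicate 3 was −0.06. The 8 macrophage markers had means of 0.14 on replicate 1 and −0.08 on replicate 3. For 25 other genes of the pathway, described further on, these means were −0.03 and 0.06. The median over these 25 genes on replicate 1 was 0.11, and that array was the highest for 12 of them (48.0%). On replicate 3 their median was 0.05, and that array was the lowest for 5 (20.0%). For the members, the sign of the mean on replicate 1 stayed positive and that on replicate 3 negative under every other scaling or correction tried. That on replicate 2 changed. With normexp background correction the members' mean on replicate 1 was 0.06, against −0.11 for all genes. Array brightness moves with the first of these, since replicate 1 was also the brightest array, and its part in the result was not tested.

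**Figure D4:**
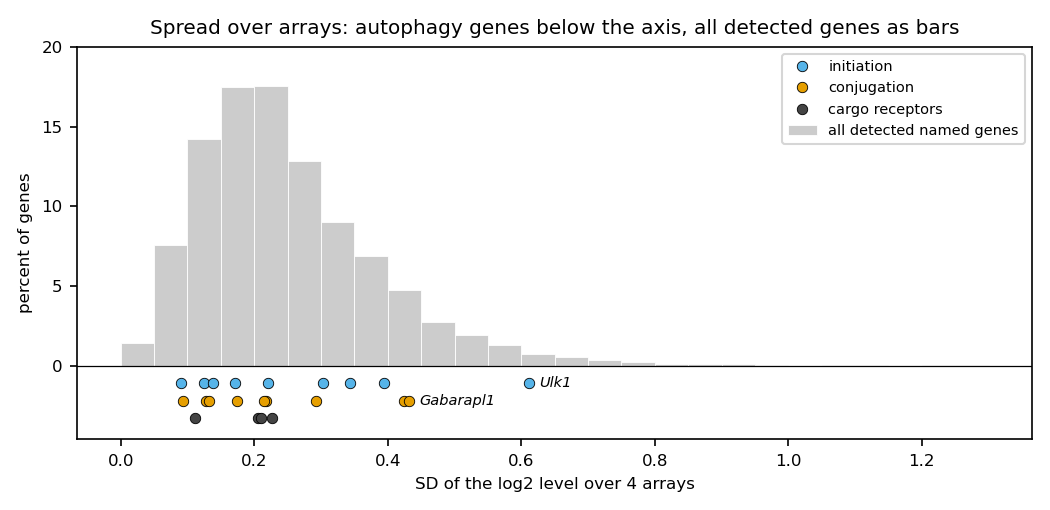
SD of the log2 level over 4 arrays (horizontal axis) for the 22 detected autophagy genes (points drawn below the bars, by role, with no vertical scale) and for all 5824 detected named genes (bars, in percent of genes, vertical axis). The members lie within the range of the bars, from 0.09 for Atg101 to 0.61 for Ulk1.

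Among the 22 genes 1, Ulk1, had an SD above 0.5 and arrays 2-fold or more apart, against 326 and 522 of all 5824 genes. A count of 1 in 22 is too small to be read as fewer than among all genes. By role the median SD was 0.22 for initiation, 0.21 for conjugation and 0.21 for cargo receptors. It was 0.21 for the dimmer 11 and 0.22 for the brighter 11 members. All genes were split differently, into 4 parts of 1456 by level, with median SDs of 0.30, 0.25, 0.20 and 0.18 from lowest to highest. The lowest part ended at a level of −3.37. These parts and the 2 parts of the members cover different levels, so the members' values do not show whether their spread falls with level. Between pairs of arrays, replicates 3 and 4 were closest, with a median absolute difference of 0.15 over the 22 genes. Replicates 1 and 3 were farthest, with 0.33. Over all genes replicates 3 and 4 were closest too, with 0.16, while replicates 1 and 2 were farthest, with 0.32, against 0.27 for 1 and 3. Replicate 1 was above replicate 3 for 17 of the 22 genes (77.3%), against 56.5% of all genes. Members are not replicates of a culture, so these counts describe the 4 arrays.

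Several probes of 1 gene gave a check on single values. Of the 33 genes, 11 had 2 or more probes, and 5 of these had at least 2 probes detected on all arrays. Atg9a was the clearest case of agreement: once each probe was set to its own mean, the 2 probes lay within 0.10 of each other on every array. The 3 Sqstm1 probes shared replicate 3 as the lowest array, with SDs from 0.04 to 0.21. For Map1lc3b, Gabarapl2 and Nbr1 the probes disagreed by up to 0.37, 0.42 and 0.29 on an array. The second Nbr1 probe, at −4.07, −4.30, −4.07 and −4.54, was as high on replicate 3 as on replicate 1. In 3 genes, Atg7, Optn and Calcoco1, 1 probe was detected on all arrays and the others were not.

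**Figure D5:**
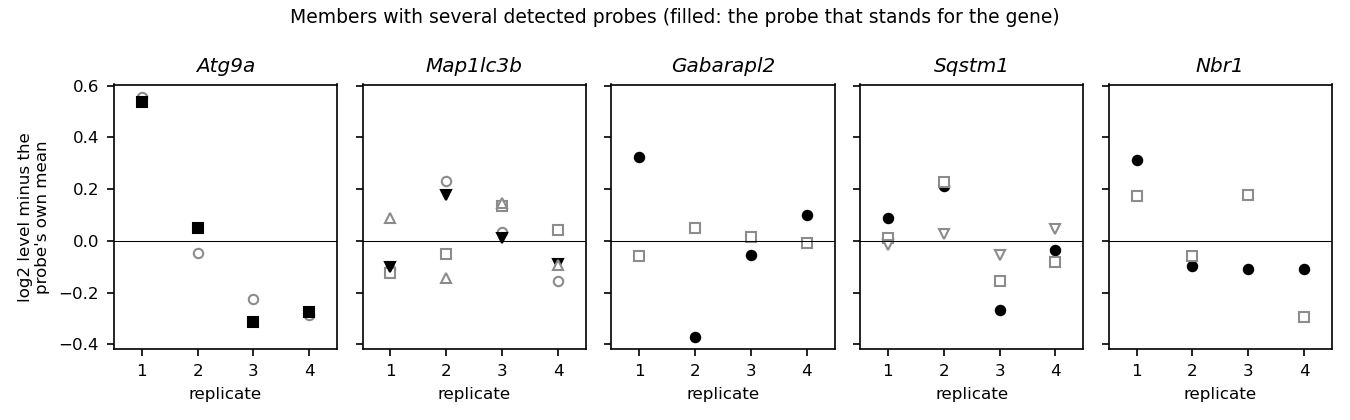
Log2 level minus the probe's own mean (vertical axis) on replicates 1 to 4 for the 5 genes with several probes detected on all arrays; filled symbols are the probe that stands for the gene. The 2 Atg9a probes nearly coincide, and those of Gabarapl2 differ by up to 0.42.

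Other genes of the pathway were read from a second list of 37. Of 32 with a probe, 25 passed on every array, 3 on fewer than 4 and 4 never. The share on every array was 78.1%, against 35.2% of all named genes. Rptor, a subunit of the nutrient-sensing complex mTORC1 that restrains ULK1, was at 0.38, −0.26, −0.40 and −0.32 on replicates 1 to 4, highest on replicate 1 as Ulk1 was. The energy-sensing kinase gene Prkaa1 was at −2.73, −3.64, −3.10 and −3.21 by 1 of its 2 probes, and the other was detected on 1 array only. The mTORC1 inhibitor genes Tsc1 and Tsc2 had means of −3.89 ± 0.46 and −0.31 ± 0.34 (SD, n = 4). The Tsc1 value is from 1 of 3 probes, designed on a predicted transcript, and the other 2 were detected on no array. Prkaa2 and Atg9b, paralogs of Prkaa1 and Atg9a, were detected on no array. Of 4 transcription factor genes that regulate autophagy and lysosome genes, named after their values were seen, Tfeb, Tfe3 and Mitf were detected on all arrays and Foxo3 on 1. Tfeb was at −2.96, −1.99, −2.50 and −3.00 (SD 0.47) and Mitf at −2.99, −1.71, −1.59 and −2.30 (SD 0.64), each by 1 probe, and lower on replicate 1 than on replicates 2 and 3. A second Mitf probe, also detected on all arrays, went the other way, at −2.75, −3.82, −3.06 and −2.60, so Mitf has no settled order of arrays. Tfe3 was at 0.55, 0.15, −0.03 and 0.35 (SD 0.25), with replicate 1 the highest.

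TFEB and its relatives bind E-boxes of the CLEAR type, and the antioxidant factor NRF2 binds antioxidant response elements, so the promoters of the members were searched for both. RefSeq promoters of 300 bases on the GRCr8 assembly, from 250 before to 50 after an annotated start, were given for 31 of the 35 genes. The letters GTCACGTG, on either strand, were found in 2 of these 31 (6.45%), Atg3 and Atg14, and in 2.02% of 27457 promoters of the table. The E-box core CACGTG, which is part of it, was found in 3 (9.68%), the same genes and Atg5, and in 6.65% of all. The letters TGACNNNGC were found in 6 (19.4%), namely Atg10, Atg4d, Atg4b, Ulk2, Gabarap and Map1lc3b, and in 12.2% of all. The 5 promoters of the cargo receptors held 0 of these matches, too few promoters to set against shares of 2.02% to 12.2%. A match is a description of letters in this window and says nothing of binding in these cells. Member promoters had a median GC content of 59.3%, against 52.3% for all.

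The windows that hold the E-box matches, and 1 with the antioxidant letters in an ATG8 gene, are shown from 120 bases before to 30 after the start, 5′ to 3′ along the gene, with matches in capitals. They are Atg3 at chr11:69159251-69159400 (minus strand), Atg14 at chr15:23306786-23306935 (minus strand), Atg5 at chr20:49380715-49380864 (plus strand) and Map1lc3b at chr19:66574475-66574624 (plus strand, at a start inside the annotated gene, which spans 66571631 to 66582270).
Atg3: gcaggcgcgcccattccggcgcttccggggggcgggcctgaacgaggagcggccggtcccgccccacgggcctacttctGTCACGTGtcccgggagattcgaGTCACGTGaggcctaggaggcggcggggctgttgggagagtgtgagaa
Atg14: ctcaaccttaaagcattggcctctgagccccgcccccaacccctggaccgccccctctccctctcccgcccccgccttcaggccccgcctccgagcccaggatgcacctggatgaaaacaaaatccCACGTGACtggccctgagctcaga
Atg5: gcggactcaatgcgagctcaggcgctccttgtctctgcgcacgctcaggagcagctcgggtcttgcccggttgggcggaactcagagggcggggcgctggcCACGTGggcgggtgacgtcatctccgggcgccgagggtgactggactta
Map1lc3b: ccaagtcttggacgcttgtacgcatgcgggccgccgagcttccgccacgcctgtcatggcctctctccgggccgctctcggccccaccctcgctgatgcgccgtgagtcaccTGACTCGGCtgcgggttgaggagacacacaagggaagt
The Atg3 window holds GTCACGTG at both 41 and 18 bases before the start. In Atg14 the match, on the other strand, begins at base 7 after the start. Of the genes with an E-box match, Atg3 was highest on replicate 1, Atg14 was lowest on replicate 4 and Atg5 was near the limit of detection.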

How the data were processed

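The 4 deposited files hold spot intensity made with Agilent Feature Extraction 11.0.1.1 (protocol GE1_1100_Jul11), per the file headers and the submitters' processing notes. The authors' software subtracted background and detrended each array on its own, as the file headers record. Unsubtracted median intensity was deposited as well, with 0 or 1 flags for outlier, saturated and well-above-background spots. The arrays share 1 slide and 1 scan. Per the labels' protocols, 100 ng of RNA with a RIN above 7.5 was labelled with Cy3.

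Control spots and spots flagged as outliers (486 to 723 of 58717 gene spots an array) were left out of levels. Replicate spots were combined as the mean of their log2 values and scaled to the 75th percentile of probes detected on all 4 arrays, because only 22.9% of probes were. A probe was detected when more than 50% of its spots were well above background, outlier spots included. A gene took the level of its probe with the highest mean, among those detected on all arrays where there were any. Of 45598 probes, 21109 (46.3%) were named by accession through RefSeq's GRCr8 gene table. The 99th percentile of negative controls was 5.07 to 5.96 intensity units. The median SD between spots of a probe was 0.065 to 0.110, and the software's error was 10.0% to 15.0% of the signal for the 22 genes. The number of arrays, 4, limits the precision.

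With 1 group there is no contrast, so levels were described without a test. Members and lists were chosen with earlier results of these data known. Named were all members with a probe, the first 4 detected and first 2 undetected genes of the second list, the markers, and exceptions stated as such. The planned protein sequences of the ATG8 family are not used here. Alternatives were normexp with an offset of 50 on the median intensity (limma 3.58.1, R 4.3.3), other scalings, quantile normalization, other detection and probe rules, and each replicate left out. The steps, tested on simulated data, ran in Python 3.11.15 with matplotlib 3.10.9, pandas 2.3.3 and numpy 2.4.6.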

Additional observations from a re-analysis of the deposited data

Results flagged for a closer look

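In 3 of the 41 levels checked, 1 of the 4 arrays stood apart from the other 3, measured as the gap to the nearest array divided by the whole range of the 4. For Nbr1 this value was 0.969, with replicate 1 above the others by its brighter probe, while its second probe was equally high on replicate 3, at −4.07 on both. For Atg16l1 it was 0.893, with replicate 1 below the others. For Atg4a it was 0.842, with replicate 3 high, but the other 3 arrays were not well above background, so that their values, and with them this ratio, are set by signal near the floor. All 3 passed Dixon's critical value for 4 samples, which chance alone passes in about 1 of 20 groups. Among the 22 detected members 2 passed it (9.09%), against 6.03% of 5824 named genes. The cause was not tested.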

How the results depend on the processing

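The number of autophagy genes detected on all arrays was 22 and ran from 19, when every probe of a gene had to be detected, to 27, when a signal over the 99th percentile of negative control spots sufficed. Over all named genes the share on all arrays was 29.9% by the first of these rules and 44.3% by the second. The number detected on no array was 7, against 9 when every probe had to be detected and 1 by the percentile rule. Over all named genes the shares on no array were 53.7%, 59.5% and 33.4% in the same order. With 1 array left out, 22 to 23 genes were detected on all arrays and 7 to 8 on none. The median SD of 0.21 ran from 0.17 after normexp to 0.27 without the filter on dim probes, and from 0.16 to 0.25 with 1 array left out. Over all genes it was 0.18 after normexp and 0.46 without the filter. Without replicate 1, 2 or 4 the members' median lay above that of all genes, at 0.202 against 0.189, 0.201 against 0.194 and 0.246 against 0.239. Without replicate 3 it lay below, at 0.163 against 0.230. The mean deviation on replicate 1 ran from 0.06 to 0.15 under the 6 alternatives that kept all arrays and the filter, and on replicate 3 from −0.13 to −0.09. On replicate 2 it ran from −0.01 to 0.08. With 1 array left out, replicate 1 ran from 0.12 to 0.20, replicate 2 from −0.05 to 0.05, replicate 3 from −0.16 to −0.06 (the last without replicate 1) and replicate 4 from −0.07 to 0.01. The SD of 8 of the 22 genes was over 1.5 times lower after normexp, and of 6 without replicate 1 (Ulk1, Atg9a, Atg3, Atg16l1, Gabarap and Nbr1), so the order of the members by SD is not fixed: after normexp Becn1 (0.04) lay below Atg101 (0.08). All 22 levels shifted up, by more than their SD, when the reference was taken over all probes or at the median, as a lower reference gives by construction. After quantile normalization 22 of 22 stayed within 1 SD. After normexp 14 of 22 levels moved by more than their SD, and without replicate 2 10 of 22 did. With the detected probes of a gene averaged 4 of 22 did, among them Sqstm1, from 3.29 to 1.23, and Map1lc3b, from 2.11 to 1.15. Genes near background are limited by signal, and their levels give no order. No paired analysis was possible because the samples form 1 group.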
